A study of Mus musculus with 12 samples.

Results

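Nell1, a long gene on mouse chromosome 7, was followed along its whole length for the silencing mark H3K9me3 in neural progenitors with and without the histone methyltransferase SETDB1. Its members are the rows that the authors' deposited H3K9me3 table annotates to Nell1, which are 48 of 50654 listed regions. The gene was chosen because most of these rows were higher in the knockout, so the genotype difference at Nell1 is described here and supports nothing. For comparison, 215 other listed regions within 2 Mb of the gene were read the same way, 91 before its start and 124 after its end.

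The cells were neurosphere cultures of neural progenitors from the ganglionic eminence, the embryonic source of cortical interneurons, of C57BL/6 mouse embryos at E15.5. The knockout (KO) is labelled Nestin-KO, and the series title names SETDB1. Nestin is a gene of neural progenitors, the labels say no more about the allele, and the other group is labelled WT. Each of the 12 libraries was a native ChIP from 100000 nuclei, and each of the 2 marks, H3K9me3 and H3K27ac, was read in 3 animals per genotype. The H3K9me3 libraries came from 3 male KO animals and from 2 female and 1 male WT animals, and the H3K27ac libraries from 1 female and 2 male animals of either genotype. By the number that opens the titles of the H3K9me3 libraries, 1 KO and 1 WT animal shared a number, the other 2 WT animals shared another, and so did the other 2 KO animals. The table joins the 3 values of a genotype in 1 cell without saying which animal is which, so each is named by its place in that cell, from the first to the third, and no value within a sex or a title number could be given. Sex, title number and genotype therefore cannot be told apart in the H3K9me3 values.

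NELL1 is a large secreted glycoprotein with EGF-like repeats, best known for promoting bone formation, and its relative NELL2 is a guidance cue of the nervous system. H3K9me3 is written by several methyltransferases, of which SETDB1 is one, and it is typical of heterochromatin and of silenced repeats and gene clusters. H3K27ac marks active promoters and enhancers. In bulk chromatin, fewer cells that carry a mark and less of the mark per cell cannot be told apart.

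The 250 bases before the start of Nell1 were rich in CG pairs and lay under no listed H3K9me3 region. They are shown beside the same window of Mrgpra4, which lay under a region listed as higher in KO, and of Dbx1, which lay under a region listed as lower. Both neighbours were picked after their values were seen. Bases are from RefSeq on GRCm38.p6, 5' to 3' on the gene's strand, with every CG pair in capitals.
Nell1, chr7:49975100-49975349, plus strand: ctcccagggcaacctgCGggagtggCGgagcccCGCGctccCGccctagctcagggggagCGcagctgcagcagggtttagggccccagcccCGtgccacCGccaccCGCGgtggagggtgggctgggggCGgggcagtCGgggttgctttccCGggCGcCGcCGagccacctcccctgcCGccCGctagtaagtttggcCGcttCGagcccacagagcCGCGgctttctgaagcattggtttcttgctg
Mrgpra4, chr7:47982297-47982546, minus strand: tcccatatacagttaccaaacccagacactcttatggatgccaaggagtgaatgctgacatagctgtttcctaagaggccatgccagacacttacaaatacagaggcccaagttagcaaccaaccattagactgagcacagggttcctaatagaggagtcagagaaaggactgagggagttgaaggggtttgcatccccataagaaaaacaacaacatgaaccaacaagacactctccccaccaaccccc
Dbx1, chr7:49636836-49637085, minus strand: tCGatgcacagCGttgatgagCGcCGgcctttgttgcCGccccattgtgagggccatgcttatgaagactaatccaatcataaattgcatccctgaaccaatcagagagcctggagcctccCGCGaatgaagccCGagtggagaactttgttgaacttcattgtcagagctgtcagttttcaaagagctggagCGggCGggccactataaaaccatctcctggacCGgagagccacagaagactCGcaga
The motif searched was CG, which reads the same on both strands, and 92.1% of 32851 RefSeq promoter windows of this length hold at least 1. The Nell1 window held 22 CG pairs and 72.0% G or C, and 14.8% of promoter windows hold as many pairs. The Dbx1 window held 12 pairs and the Mrgpra4 window 0, against a median of 6 over all windows. The nearest listed H3K9me3 region inside Nell1 began 44.7 kb past its start.

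H3K9me3 was listed as higher in KO at 42 of the 48 Nell1 regions and as lower at 6. Over the whole table, 28.9% of regions passed the authors' adjusted p of 0.05 as higher in KO and 71.1% as lower. The gene was chosen on this count, so nothing is read from the gap. The higher regions had a median log2 fold change of 0.87 (0.61 to 1.69) in the authors' deposited table, and the lower ones a median of -0.72 (-1.49 to -0.55). Higher regions elsewhere were of like size, with a median of 0.81 over the 14615 of the whole table.

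**Figure D1:**
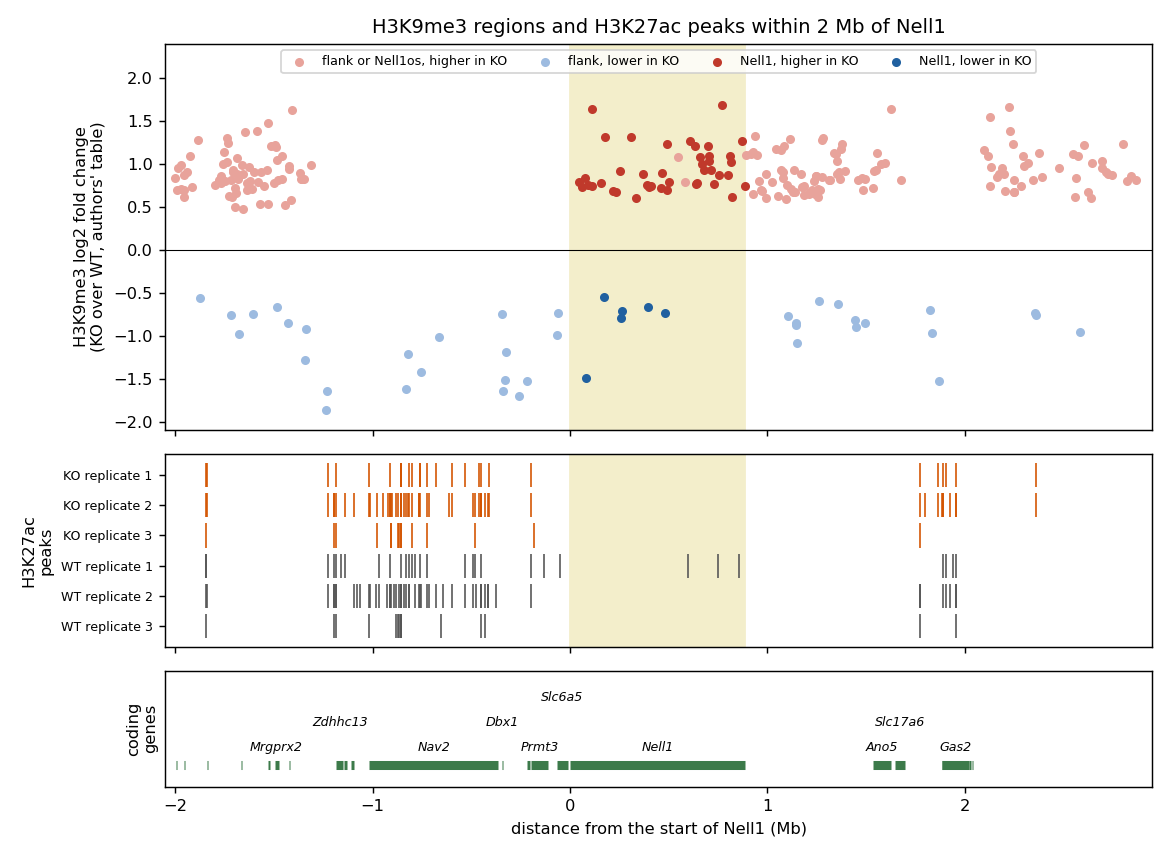
H3K9me3 regions, H3K27ac peaks and coding genes by distance from the start of Nell1 in Mb, with the gene shaded. The upper panel gives the authors' log2 fold change of each region (KO over WT), the middle panel the peaks of each of 6 libraries. Nell1 holds 42 higher and 6 lower regions, and its only peaks are 3 in WT replicate 1.

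All 48 regions were classed as gene body by the authors. Nell1 spans chromosome 7 from 49975350 to 50863289 on the plus strand (888 kb). The regions were narrow and scattered: their median width was 1200 bp (1000 to 2900 bp), the median gap between them was 10.8 kb, and together the higher ones covered 6.51% of the gene and the lower ones 1.04%. They were not spread evenly by direction. With the gene divided into 3 equal stretches from its start, the first held 11 higher and 4 lower regions, the next 11 and 2, and the last 20 and 0. The median log2 fold change was 0.74, 0.75 and 1.01 in these stretches. The largest gap, 102 kb, holds both regions annotated to Nell1os, an antisense transcript inside the gene, and both were higher (1.08 and 0.79 log2). The last Nell1 region ended 3.7 kb before the end of the gene.

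Summed over all 48 regions, H3K9me3 was higher in each KO library than in any WT library. The KO sums were 2117, 2847 and 3064 normalised reads in the listed order and the WT sums 1181, 1922 and 1992. The means were 2676 ± 496 and 1698 ± 450 (SD, n = 3), a log2 difference of 0.66 or 1.58-fold. Per kb of region the means were 39.9 ± 7.41 and 25.3 ± 6.71 normalised reads (SD, n = 3). The first listed value was the lowest of its genotype on both sides, and without the first WT value the log2 difference was 0.45.

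At the 42 higher regions the KO libraries held 33.8, 45.1 and 47.8 normalised reads per kb and the WT libraries 14, 25.8 and 27.5. The means were 42.2 ± 7.47 and 22.4 ± 7.38 (SD, n = 3), a log2 difference of 0.91 in the summed level. Region by region the groups were less cleanly apart: at 28 of the 42 (66.7%) all 3 KO values lay above all 3 WT values, and at 14 they overlapped. The same share was 70.0% over all higher regions of the table and 20.2% over all listed regions. Without the third WT value, 34 of the 42 did not overlap. The first WT value was the lowest of its group at 38 of the 42 regions.

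**Figure D2:**
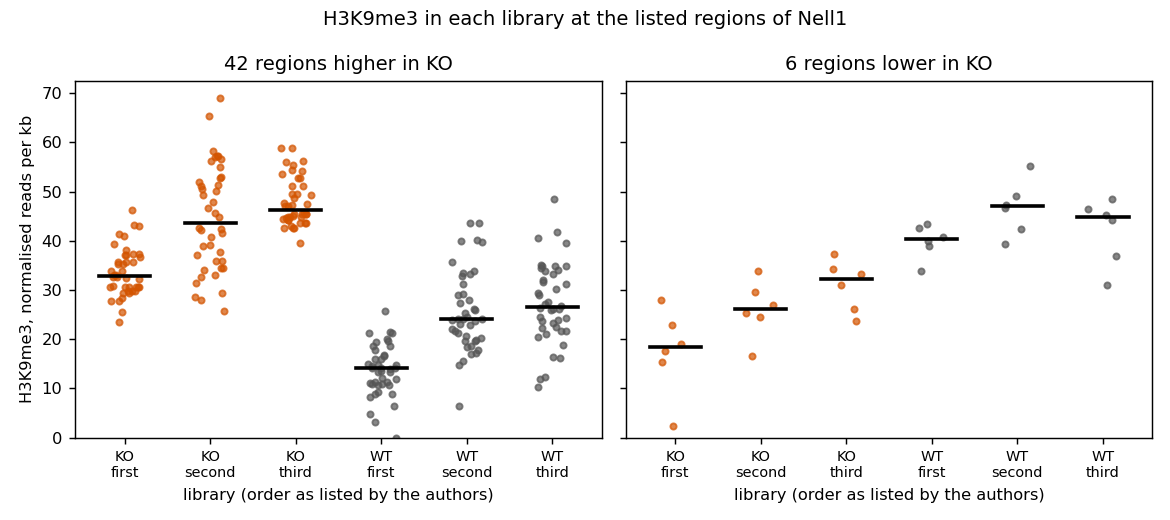
H3K9me3 at each listed Nell1 region, in normalised reads per kb, for the 3 KO and 3 WT libraries in the authors' order. Points are regions and bars their medians. The higher regions lie lowest in the first WT value, and at the 6 lower regions the order of the genotypes is turned round.

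The largest relative difference lay at chr7:50743001-50744000, which is 767.7 kb into the gene. Its KO values were 30.57, 34.44 and 48.75 normalised reads and its WT values 0.00, 22.97 and 12.32, so the groups did not overlap. The log2 fold change was 1.69, from 37.9 ± 9.58 against 11.8 ± 11.5 (SD, n = 3), and the first WT library had 0 reads here. A region nearer the start, chr7:50083801-50084900, followed at 1.64, with 30.57, 44.91 and 56.31 in KO and 3.55, 20.50 and 18.12 in WT. Here too the lowest KO value stood above the highest WT value. In both regions, however, that KO value rests on 12 reads in the first KO library. No higher Nell1 region had fewer reads in that library. At chr7:50153201-50154400 the KO values were 40.76, 82.84 and 67.24 and the WT values 15.95, 22.14 and 38.42, a log2 fold change of 1.32. The lowest KO value and the highest WT value nearly met there.

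The widest higher region, chr7:50582101-50584900 (2800 bp), did not overlap between genotypes. Its KO values were 114.63, 119.02 and 138.68 and its WT values 33.68, 48.39 and 72.50, with a log2 fold change of 1.27. It was chosen after its values were seen. With 273 reads in the second KO library it was also the region with the highest read count there.

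The 2 higher regions with the most signal in WT overlapped between genotypes. At chr7:50386001-50388500 the KO values were 81.52, 89.81 and 131.95 and the WT values 35.45, 59.87 and 84.82 (0.75 log2). At chr7:50797001-50798800 they were 61.14, 91.12 and 89.09 against 31.91, 49.21 and 75.40 (0.62 log2). In both, the third WT value reached into the KO range.

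The regions with the most H3K9me3 in WT went the other way. At chr7:50232301-50235200, 257.0 kb into the gene, the WT values were 125.86, 136.97 and 134.85 and the KO values 50.95, 71.07 and 108.42, a log2 fold change of -0.79. The WT libraries lay close together (133 ± 5.90, SD, n = 3) and the KO libraries spread widely below them (76.8 ± 29.2). Its neighbour at chr7:50235501-50237500 had 81.54, 93.50 and 97.15 in WT and 45.85, 54.06 and 66.40 in KO (-0.71 log2). Their WT means, 133 and 90.7 normalised reads, were the highest of the 48 regions.

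The deepest relative loss was narrow and lay between higher regions. At chr7:50054301-50055400 the KO values were 2.55, 18.31 and 26.05 and the WT values 37.23, 60.69 and 34.07 (-1.49 log2). It was 200 bp away from a region listed as higher. Over all 6 lower regions the KO libraries held 165.6, 238.9 and 299.2 normalised reads in sum and the WT libraries 374.0, 430.6 and 401.6. The means were 234.6 ± 66.9 and 402.1 ± 28.3 (SD, n = 3). At each of the 6 the groups did not overlap, as at 76.3% of all lower regions of the table and 54.2% of all listed regions.

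The 2 kinds of region also differed in the authors' enrichment, a ratio for which neither labels nor headers name the reference. At the 42 higher regions the WT ratio had a median of 0.90 (0.41 to 2.00), and at 32 of them (76.2%) it was 1 or less. The KO ratio there had a median of 1.93 (1.04 to 3.83) and was 1 or less at 0. At the 6 lower regions the WT median was 1.88 (1.47 to 3.41) and the KO median 1.33. Over the whole table, 60.8% of higher and 4.60% of lower regions had a WT ratio of 1 or less, so the same split was seen across the table. The regions were sorted by KO over WT in these same libraries. The sorting itself favours such a split, and nothing is read from it.

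**Figure D3:**
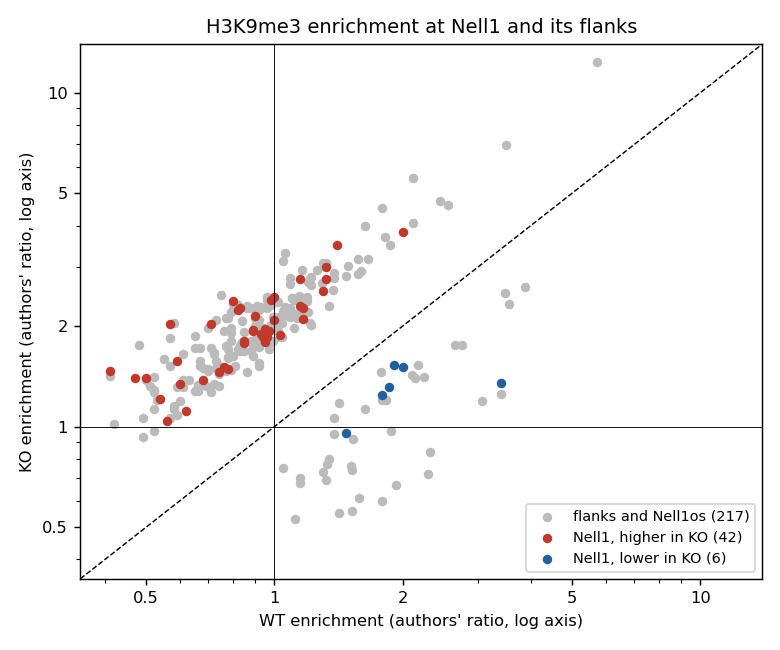
The authors' H3K9me3 enrichment ratio in KO (vertical) against WT (horizontal) at each listed region of Nell1 and its flanks, both on log axes, with the line of equality dashed. The 42 higher Nell1 regions lie mostly left of a WT ratio of 1, and all 6 lower ones lie right of it.

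With the spread between animals in the test, the number of Nell1 regions that passed differed by method. limma on log2(value + 1), adjusted by Benjamini-Hochberg over all listed regions, passed 1.24% of the table as higher in KO and 14.9% as lower, and in Nell1 2 as higher and 0 as lower. At an unadjusted p of 0.05 it had 11.5% of the table as higher and 48.5% as lower, and 16 and 2 of the 48 Nell1 regions. limma-voom on the recovered reads passed 14.1% of the table as higher and 58.0% as lower, and 22 and 4 of the Nell1 regions. The regions were listed by the authors for a difference between these same libraries, and nothing is read from these counts. Scaled to the median ratio over listed regions, which raises KO over WT by 0.83 on the log2 scale, limma passed 14045 regions of the table as higher and 3025 as lower, against 627 and 7551. Under that scaling 41 Nell1 regions passed as higher and 0 as lower, and 46 of the 48 had a positive log2 difference. The scaling moves every region upward by about the same amount, so no higher region could change sign under it.

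The reads behind these values were few. The 48 Nell1 regions held 831, 6530 and 3646 recovered reads in the KO libraries and 666, 2343 and 2748 in the WT libraries. Poisson intervals (95%, exact, counting error only) ran from 775 to 889 for the first KO library and from 616 to 719 for the first WT library. The median region held 16, 121 and 70 reads in KO and 10, 45 and 48 in WT. Low values of 1 region in the first library of either genotype therefore rest on a handful of reads.

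Around Nell1, regions higher in KO came in blocks. Within 2 Mb, 178 of the 215 flanking regions (82.8%) were listed as higher and 37 as lower. Of the 91 before the gene 69 were higher, and of the 124 after it 109. But the stretch directly before Nell1 held none: from 1250 kb before the start up to the start itself, the 5 windows of 250 kb held 0 higher and 14 lower regions. The next 4 windows, which cover the gene, held 10, 11, 15 and 19 higher and 2, 4, 0 and 0 lower regions, the last window running past the gene's end. Beyond the gene the windows from 1000 to 1750 kb held 27, 22 and 8 higher and 4, 5 and 0 lower regions, and the window from 1750 kb held 0 higher and 3 lower ones. The start of Nell1 thus lay near the edge of a block, and its end did not.

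**Figure D4:**
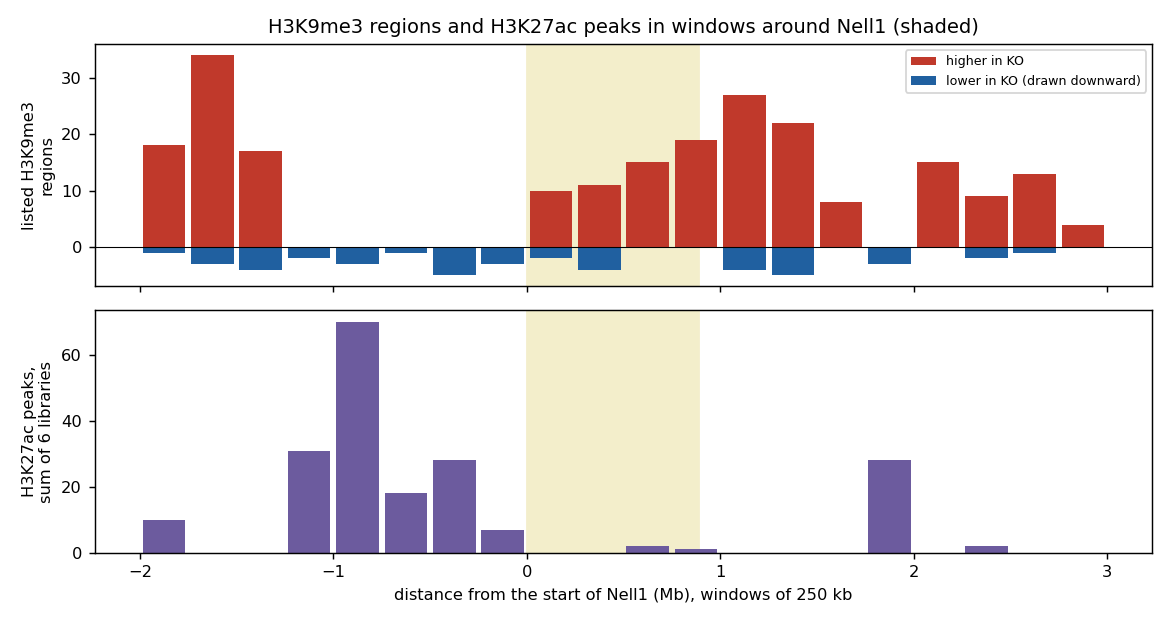
Listed H3K9me3 regions (upper panel, higher in KO upward, lower in KO downward) and H3K27ac peaks summed over 6 libraries (lower panel) in windows of 250 kb by distance from the start of Nell1, which is shaded. The 5 windows directly before the gene hold 0 higher regions, and windows with many peaks hold lower regions only.

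Summed over all 215 flanking regions, higher and lower, the log2 difference was 0.39. After the gene it was 0.59, with 39.3 ± 5.73 normalised reads per kb in KO and 26.1 ± 4.19 in WT (SD, n = 3). Before the gene it was 0.19, with 36.6 ± 4.19 and 32.2 ± 1.38, and the sums of the genotypes overlapped. The higher regions alone, picked for their direction, were alike in level on both sides and in the gene. After the gene they held 41.6 ± 5.57 normalised reads per kb in KO and 22.5 ± 4.67 in WT (SD, n = 3), and those before the gene 43.9 ± 5.57 and 24.0 ± 0.403. Nell1 had 42.2 ± 7.47 and 22.4 ± 7.38. No higher region of Nell1 had a first KO value below 30.57, and that value recurred at several of them. Whether the listing set such a lower limit was not tested. A limit of this kind would itself favour like KO levels, so nothing is read from the likeness. The first listed region past the gene, chr7:50865201-50866200, lay 1.90 kb from its end and was higher (30.57, 33.57 and 52.95 in KO, 15.95, 18.04 and 20.30 in WT). The nearest region before the gene, chr7:49911801-49912900 at Slc6a5, was lower (10.19, 43.60 and 32.78 in KO, 46.09, 63.15 and 35.52 in WT, overlapping). Listed regions were about as dense in the gene (54.1 per Mb) as over the whole 2 Mb before it (45.5) and after it (62.0). Those before it were uneven: the 250 kb windows up to 1250 kb before the start held 1 to 5 listed regions each. Windows further out held 19 to 37, and those from the start to 750 kb into the gene held 12 to 15.

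Among the genes before Nell1, those of the Mas-related G protein-coupled receptors, receptors of sensory neurons and mast cells, were mostly higher. Mrgprx2 had 4 higher regions and 1 lower, with 39.5 ± 4.36 normalised reads per kb in KO and 29.4 ± 6.36 in WT (SD, n = 3). Its libraries held 38.8, 35.5 and 44.1 in KO and 36.5, 27.6 and 24.1 in WT, so the genotypes overlapped. Mrgprx1, Mrgprb1 and Mrgprb2 had 2 higher regions each, and Mrgpra4 and Mrgprb4 had 1 each. These genes are close copies of one another, so their single values are uncertain, though the placing of reads among them was not tested. The Mrgpra4 region, which covers the promoter printed above, had 89.16, 99.84 and 126.07 in KO and 60.27, 67.25 and 65.97 in WT.

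The genes between that cluster and Nell1 had lower regions only. Nav2, a neuron navigator protein of axon growth, had 4, with log2 fold changes from -1.62 to -1.02. Its KO libraries held 3.58, 14.8 and 35.8 normalised reads per kb and its WT libraries 37.3, 54.4 and 46.3. Over its regions together the genotypes thus just failed to overlap, and region by region they did not overlap at 3 of the 4. At chr7:49312001-49313000 the third KO value (49.59) lay above every WT value, and the first KO library had 0 reads. Dbx1, a homeobox factor of progenitor domains, had 2 lower regions. The one over its promoter (chr7:49634301-49638200) had 94.25, 78.04 and 105.06 in KO and 168.41, 310.03 and 387.87 in WT, a log2 fold change of -1.64. Htatip2 had 1 lower region over its start (-1.53), and Slc6a5, a glycine transporter, had 2 (-0.99 and -0.74).

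After Nell1, Ano5, a membrane protein of the anoctamin family, had 5 higher regions and 0 lower ones. It held 34.0, 42.7 and 45.8 normalised reads per kb in KO and 20.1, 19.5 and 22.2 in WT, with no overlap (40.8 ± 6.13 and 20.6 ± 1.42, SD, n = 3). Slc17a6, the vesicular glutamate transporter VGLUT2, had 1 higher region (0.81) whose values overlapped.

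A list of 9 genes held Nell2 and genes tied to the NELL proteins as receptors, binding partners or transcription factors. Of these, 5 had a listed region, with 11 regions in all, of which 0 were higher and 11 lower, where 71.1% of the whole table was lower. Their median log2 fold change was -1.25, against -0.94 over the whole table. Nell2 had 3 lower regions (-1.59 to -1.0), with 12, 10.1 and 36.2 normalised reads per kb in KO and 49.7, 42.6 and 39.5 in WT. Cntnap4, a neuronal receptor that NELL1 binds, had 2 (-1.27 and -1.25). Among transcription factors tied to NELL1 in bone and cartilage, Runx2 had 3 (-1.70 to -0.94), Runx3 had 1 (-0.98) and Nfatc2 had 2 (-2.0 and -0.77). Itgb1, Atraid, Robo3 and Sp7 had 0 listed regions.

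The genes nearest to Nell1 in pattern were Cntnap5c, Ano2, Kcnh8, Lrfn5 and Cntnap5b. Among 150 genes with 10 or more listed regions, likeness was the Euclidean distance between the 6 library means of log2(value + 1), centred on each gene. These are the values on which Nell1 was chosen, so genes near to it have mostly higher regions by construction. The median distance from Nell1 was 2.84 and the furthest 3.86. The 5 lay at 0.27, 0.31, 0.32, 0.38 and 0.40, in the order given. Cntnap5b and Cntnap5c belong to the contactin-associated family of neuronal surface proteins, Ano2 is a calcium-activated chloride channel, Kcnh8 a potassium channel and Lrfn5 a synaptic adhesion protein. Cntnap5c had 51 higher of 55 regions and Ano2 38 of 38. In normalised reads per kb, Cntnap5c had 33.5, 37.3 and 45.5 in KO and 17.6, 24.6 and 25.6 in WT, with no overlap. In all, 39 of the 150 had more higher than lower regions. By the number of higher regions Nell1 came 4th in the table, after Cntnap5a with 79, Gm6367 with 53 and Cntnap5c.

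**Figure D5:**
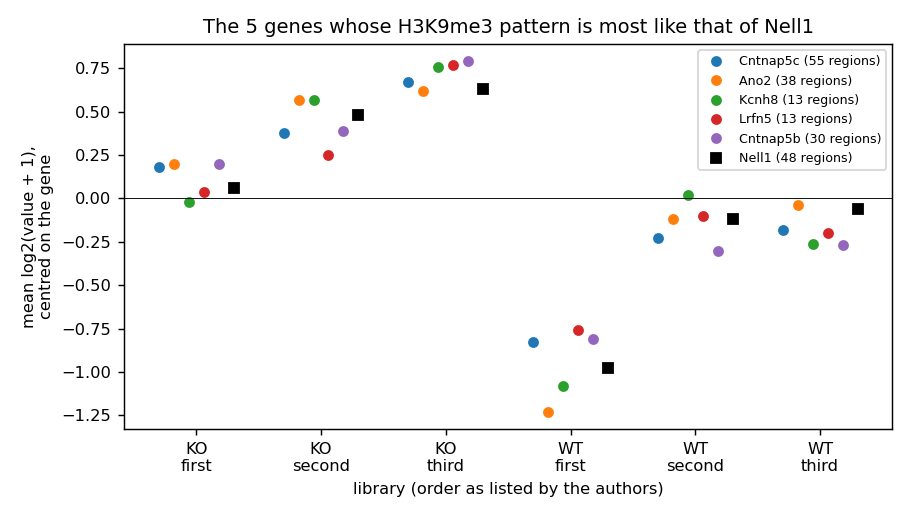
Mean log2(value + 1) of H3K9me3 over each gene's listed regions, centred on the gene, in the 3 KO and 3 WT libraries in the authors' order, for Nell1 (black squares) and the 5 genes nearest to it. In each of the 6 genes the first WT value is the lowest, at -0.98 for Nell1.

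The points of this comparison share libraries, scaling and depth, and those of the 6 values that stand lowest in each genotype come from the shallowest libraries. Relative depth was taken from the scaling, as the smallest number of normalised reads per read divided by each library's own. It was 17.1%, 100% and 51.9% for the KO values in listed order, and 24.6%, 53.2% and 60.1% for the WT values. Reads in listed regions ranked otherwise between genotypes, with 15.9 Mreads in the first WT library and 13.7 in the third KO library. The part of depth in the pattern was not tested.

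H3K27ac, read in other libraries and not used to choose the gene, had few called peaks in Nell1. The KO libraries had 0, 0 and 0 peaks that overlapped the gene or lay up to 1 kb outside it, and the WT libraries 3, 0 and 0. The means were 0 and 1.00 ± 1.73 (SD, n = 3). An exact two-sided permutation test, which cannot go below 0.1 with 3 libraries per genotype, gave p = 1. With peaks in 1 library only, every relabelling gives a difference of the same size. The test could therefore give no other result, and nothing is read from it. No library had a peak within 10 kb of the start of Nell1, the CG-rich window printed above included, since the count there was 0 in each. The 3 peaks were all in WT replicate 1. One, chr7:50575199-50575348, lay at the start of Nell1os with the authors' fold enrichment of 6.64 and a -log10 q of 7.26. The others were weaker, at chr7:50725050-50725187 (4.27 and 2.78) and chr7:50832033-50832178 (5.69 and 5.34). None overlapped a listed H3K9me3 region, and the nearest ones were 6.80, 1.90 and 14.6 kb away.

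The flanks did have H3K27ac peaks, in equal number in both genotypes. Within 2 Mb, the gene left out, there were 27, 55 and 15 peaks in KO and 27, 55 and 15 in WT (mean 32.3 ± 20.5 in both, SD, n = 3; exact permutation p = 1, two-sided). The equal totals are made of unlike parts, with 21, 45 and 14 before the gene in KO against 23, 48 and 13 in WT. After the gene there were only 6, 10 and 1 in KO and 4, 7 and 2 in WT. Replicate 2 had the most and replicate 3 the fewest in both genotypes, as in the whole libraries (26393, 42712 and 11502 peaks in KO, 31951, 37342 and 12505 in WT). Per Mb the flanks held 3.75 to 13.8 peaks, and Nell1 held 3.38 in WT replicate 1 and 0 in the other libraries.

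Most peaks in the 20 windows over and around Nell1 lay in windows with more lower than higher H3K9me3 regions (182 in 6 windows, against 15 in the other 14 windows). The 3 peaks of Nell1 were among these 15. The 5 windows with 12 or more peaks held 175 peaks over the 6 libraries, with 0 higher and 14 lower H3K9me3 regions. The 10 windows with 0 peaks held 161 higher and 23 lower regions, and 2 of the 4 windows over Nell1 were among them. The 5 windows with 1 to 11 peaks held 61 higher and 6 lower regions. One of these, from 2000 to 1750 kb before the gene, had 10 peaks, with 18 higher regions and 1 lower. The count is a description of neighbouring windows of shared libraries. Nav2 alone had 16, 36 and 10 peaks in KO and 13, 37 and 10 in WT. Zdhhc13, a palmitoyltransferase, had a peak in all 6 libraries, Prmt3, an arginine methyltransferase, and Gas2, a growth-arrest gene, in 5, and Fancf, a DNA repair gene, in 4. Gm51464 had a peak in 3 libraries, Csrp3 and E2f8 had one in 2, and Slc6a5 in 1. The Mas-related receptor genes, Dbx1, Htatip2, Ano5, Slc17a6 and Svip had 0.

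The cells carried H3K27ac at some genes of neural progenitors but not at others. Of 12 markers of ganglionic eminence progenitors, Pax6, Nes and Fabp7 had a peak in all 6 libraries, 8 had one in any, and Dlx2, Dlx5, Gsx2 and Nkx2-1 had 0 in each. Dlx1 had a peak in 2 libraries, both of them WT. Of 12 markers of other cells, 4 had a peak in any library. The vessel gene Pecam1 had 1, 4 and 2 peaks in KO and 4, 3 and 2 in WT. Sp7, a factor of bone cells, where Nell1 is best known, had a peak in 3 libraries, and Ptprc and Spi1 in 2 each. Whether other cells bear on the values at Nell1 was not tested.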

How the data were processed

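H3K9me3 and H3K27ac were measured by native ChIP-seq in 12 libraries. Reads were processed against mm10, with Bowtie2 2.3.4.3 and MACS2 named in the submitters' processing notes. Neither the labels nor the headers name the software that compared the H3K9me3 libraries. Per the file headers, the authors' H3K9me3 table gives 3 normalised signal values per genotype, group means, an enrichment ratio, a log2 fold change (KO over WT), and p-values and adjusted p-values per region. Per the labels, the authors deposited 1 H3K27ac peak list per library, with each peak's score, fold enrichment as a ratio, and -log10 p and q.

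At the Nell1 regions the authors' p matched a G-test on summed values within 0.00468 on the log10 scale (47 regions; 1 is listed as 0), a test that leaves out the spread between animals. Low values (46826 to 49508 per library) were whole multiples of 1 read within 0.1 reads (100%), and higher values were rounded without this check. A read was 2.55, 0.436 and 0.84 normalised reads in KO and 1.77, 0.82 and 0.725 in WT. The KO libraries held 11.0, 36.4 and 13.7 Mreads in listed regions (M for mega), and the WT libraries 15.9, 19.6 and 28.4 Mreads, of which 70.4% to 91.8% lay in 26 regions with a WT mean above 10000. H3K27ac depth is unknown.

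A region was counted as higher or lower by the sign of the authors' fold change at an adjusted p of 0.05 or less; all 48 Nell1 regions passed. limma 3.58.1 (R 4.3.3) was fitted with a mean-variance trend on log2(value + 1) over the whole table, so its differences are on the log2(value + pseudocount) scale, and limma-voom on the recovered reads as an alternative. Both were also run on simulated data with a fixed spread between libraries and few changed regions, unlike the deposited values. That run is not read as support for either method. Peak counts were compared with exact two-sided permutation tests over all relabellings. The G-test and the Poisson intervals used scipy 1.17.1. Gene positions and promoters are from RefSeq GRCm38.p6. By rule, the named Nell1 regions are the 4 with the highest WT mean and the 4 with the largest absolute fold change. The widest higher region and the regions named in the flanks were added after their values were seen. The named genes are those within 2 Mb with a listed region or peak, the NELL list and the 5 genes most like Nell1. The gene, the lists and the rules were chosen with earlier results of these data known. Alternatives covered thresholds, scaling, pseudocounts, flank size, peak rules and left-out libraries.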

Additional observations from a re-analysis of the deposited data

How the results depend on the processing

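The count of Nell1 regions higher in KO was 40 (3 lower) at an adjusted p of 0.001, 42 (1 lower) under median-ratio scaling and 15 (1 lower) at an absolute log2 fold change of 1 or more. Leaving out any 1 listed value, an alternative chosen after seeing the data, left 42 above and 6 below without a test. In the flanks the count was 52 (14 lower) at a fold change of 1 or more and 68 (24 lower, of 92) within 1 Mb. The summed log2 difference at Nell1 ran from 0.45 to 0.80 with 1 listed value left out and was 1.49 under median-ratio scaling. That of the flanks, 0.39 as reported, was 1.25 under this scaling and 0.82 as a median of fold changes. A lowest mean of 10 removed no region.

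limma with Benjamini-Hochberg adjustment passed 8178 regions of the table, 19111 with a pseudocount of 5, 17070 under median-ratio scaling and 36518 as limma-voom. With 1 listed value left out it passed 0 to 33918 (16216 to 36774 at an unadjusted p of 0.05). The most came without the third KO value, with 9 of the Nell1 regions, and 10 came without the third WT value. With any other value left out it passed 0 in the table. The cause was not tested.

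No paired analysis was possible for H3K9me3 because the listed order carries no animal numbers. For H3K27ac, with the first title number as replicate block, the difference in peaks (KO minus WT) was -1.5 at Nell1 and 0 in the flanks (exact permutation p = 1 for both). At Nell1 the blocked test too could give no other p, because only 1 library had peaks. With 1 library left out the difference ran from -1.5 to 0 at Nell1, being 0 without WT replicate 1, and from -11.3 to 11.3 in the flanks. Depth limits single regions in the first listed library of each genotype.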
